A study of Mus musculus with 8 samples.

Results

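The transcripts described here encode 9 mitochondrial enzymes that break down the acyl-CoA products of leucine, isoleucine and valine after the keto acid dehydrogenase step. They were taken by symbol from a table of 39009 rows under 38741 distinct symbols, as members of a pathway and not by their measured values, although earlier results of these data were known when the pathway was chosen. Each symbol had 1 row, and all 9 had a mean of at least 1 FPKM (sequenced fragments divided by exon length and by library size, a level that can be compared between genes). Ivd, Mccc1, Mccc2 and Auh belong to the leucine branch, Acadsb to the isoleucine branch, and Acad8, Hibch, Hibadh and Aldh6a1 to the valine branch.

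Gastrocnemius, a calf muscle, came from 4 wild-type male mice aged 9 to 10 weeks and weighing 22 to 25 g, and from 4 male mice homozygous for the Bcat2tm1.2Clyn allele, aged 10 to 11 weeks and weighing 15 to 24 g, all of C57BL6 background. Bcat2 encodes BCATm, the mitochondrial aminotransferase that makes the keto acids feeding all 3 branches. Mice of both genotypes and their mothers were offered chow beside a purified diet without the branched-chain amino acids. The knockout libraries are called KO5 to KO8 as in the table, and none of them could be tied to the age or weight of one mouse. The sources used here do not say which part of Bcat2 the allele lacks.

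The pathway works in parallel lines. After transamination and oxidative decarboxylation, each branched acyl-CoA is oxidised by its own flavin-dependent acyl-CoA dehydrogenase, which passes electrons to the respiratory chain through electron transfer flavoprotein. The leucine line then needs a biotin-dependent carboxylase and a hydratase and ends in acetyl-CoA and acetoacetate. The isoleucine and valine lines lead to propionyl-CoA, and valine is the only one of the 3 whose intermediate is freed from coenzyme A midway. Muscle is known for high transamination of these amino acids, while adipose tissue and liver also carry the later enzymes.

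Bcat2 itself checked the labels, at 41.2 to 83.0 FPKM in the wild-type libraries and 2.09 to 5.26 FPKM in the knockouts. FPKM give no read totals, but the size of the lowest values put depth at 0.435 (WT4) to 1.22 (WT3) of that of WT2. In 2 libraries, 1 of each genotype, adipocyte transcripts stood far above the rest: 10 adipocyte markers summed to 18429 FPKM in WT1 and to 9595 FPKM in KO6, while the remaining 6 libraries had 1616 to 3074 FPKM. KO6 also held 555 FPKM of 7 skin markers, with 1.26 to 2.79 FPKM elsewhere. Endothelial markers ran from 39.5 to 65.7 FPKM in wild type and from 22.7 to 44.9 FPKM among knockouts, with 3 of 5 lower at an unadjusted limma p under 0.05, and fibroblast markers (2 of 6 lower by that measure) from 420 to 703 and from 369 to 558 FPKM. Macrophage markers summed to 9.17 to 24.9 and 9.57 to 25.3 FPKM, and nerve markers to 49.6 to 92.7 and 74.3 to 179 FPKM. Muscle identity was clear in all 8, with 72659 to 109076 FPKM summed over 7 fast fibre markers. Because of the adipocyte transcripts, results that rest on WT1 and KO6 are also given without them. In whole tissue, fewer cells of a type and less RNA per cell cannot be told apart.

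Promoter windows are shown for Ivd, the only enzyme of the 9 whose genotypes did not overlap, and for Mccc1 and Mccc2. Mccc1 and Mccc2 encode the subunits of a single enzyme, and Mccc1 varied more widely between mice. The sequences come from RefSeq (GRCm38.p6, the same assembly as mm10) and run from 250 bases before to 50 bases after the start site, on the strand of the gene. Ivd lies on the forward strand at chr2:118861744-118862043, Mccc1 on the reverse strand at chr3:36000629-36000928 and Mccc2 on the reverse strand at chr13:100015590-100015889. Capitals mark exact matches on either strand to CCAAT (the CCAAT box), to GGGCGG (a GC box) or to CACGTG (an E-box).
Ivd: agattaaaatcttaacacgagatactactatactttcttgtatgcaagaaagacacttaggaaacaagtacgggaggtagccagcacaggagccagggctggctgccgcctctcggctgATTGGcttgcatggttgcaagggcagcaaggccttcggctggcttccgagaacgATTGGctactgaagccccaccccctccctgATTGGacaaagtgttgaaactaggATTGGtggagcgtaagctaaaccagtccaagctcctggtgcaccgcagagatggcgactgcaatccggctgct
Mccc1: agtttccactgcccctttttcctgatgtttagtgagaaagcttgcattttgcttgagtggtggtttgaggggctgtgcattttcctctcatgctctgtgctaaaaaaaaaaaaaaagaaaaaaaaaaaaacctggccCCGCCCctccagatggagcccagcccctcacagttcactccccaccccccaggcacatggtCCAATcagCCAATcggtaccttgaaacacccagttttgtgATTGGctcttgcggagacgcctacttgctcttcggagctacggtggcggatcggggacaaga
Mccc2: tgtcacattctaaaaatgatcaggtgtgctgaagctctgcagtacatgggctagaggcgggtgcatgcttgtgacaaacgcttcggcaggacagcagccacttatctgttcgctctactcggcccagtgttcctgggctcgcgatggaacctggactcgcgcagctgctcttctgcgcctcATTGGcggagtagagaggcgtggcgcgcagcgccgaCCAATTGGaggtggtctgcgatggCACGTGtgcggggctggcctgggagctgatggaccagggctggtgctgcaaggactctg

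All 9 genes had windows in the RefSeq table, 10 in all because Aldh6a1 has 2. The Ivd window held 4 matches to CCAAT and none to GGGCGG, and the Mccc2 window paired matches to CCAAT, of which 2 overlapped, with a match to CACGTG just before the start site. CCAAT occurred in 7 of the 10 windows of these enzymes and in 37.4% of the 32851 windows in the table. GGGCGG occurred in 6 of 10 (35.7% of all windows) and CACGTG in 1 of 10 (7.15%). None of the 10 held TATAAA (13.6% of all windows), the letters GCATGCGC (2.71%), which resemble an NRF1 motif, or TNAAGGTCA (1.28%), which resemble an ERR motif. The windows of these enzymes had a median GC content of 59.3%, against 52.7% for all windows.

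In the leucine branch, Ivd read lower in all 4 knockouts. Ivd encodes isovaleryl-CoA dehydrogenase, the first step of the branch after the keto acid dehydrogenase. It read 54.3, 38.3, 58.4 and 47.3 FPKM in WT1 to WT4 and 25.8, 36.1, 33.1 and 21.5 FPKM in KO5 to KO8. Every knockout lay under every wild-type library, although only narrowly between KO6 and WT2. The means were 49.6 ± 8.79 and 29.1 ± 6.69 FPKM (SD, n = 4 each), so that the knockout mean was 58.7% of the wild-type mean. On the log2(FPKM + 1) scale the knockout minus wild-type difference was -0.76 (SE 0.20, 95% interval -1.22 to -0.29), with a limma unadjusted p = 0.00523. It did not pass the threshold of 0.05 after Benjamini-Hochberg adjustment over all 11118 tested genes (limma adjusted p = 0.48). The exact 2-sided permutation p was 0.0286, the smallest that 4 against 4 libraries can give.

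Leaving out WT1 and KO6, the libraries with raised adipocyte transcripts, could not make the separate Ivd groups overlap, so only the size of the difference is given. Without WT1 and KO6 the means were 48.0 ± 10.1 and 26.8 ± 5.87 FPKM (SD, n = 3 each), a knockout level of 55.8% of wild type. The difference was then -0.82 on the log2 scale (limma adjusted p = 0.44). In that setting 13.2% of all tested genes were lower in knockouts without overlap, against 4.68% over all 8 libraries. The endothelial and fibroblast sums, given above, reached lower in knockouts but overlapped between genotypes. Their part in the Ivd difference was not tested. Of 520 tested genes with knockout values all under the wild-type values, 4.68% of the 11118, Ivd was the single member among these 9. At an unadjusted limma p under 0.05, 7.33% of tested genes were lower in knockouts, and Ivd was again the single member. Over all genes, 0.027% passed after adjustment (3 genes, Bcat2 among them), and 0 of the 9 enzymes did.

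**Figure D1:**
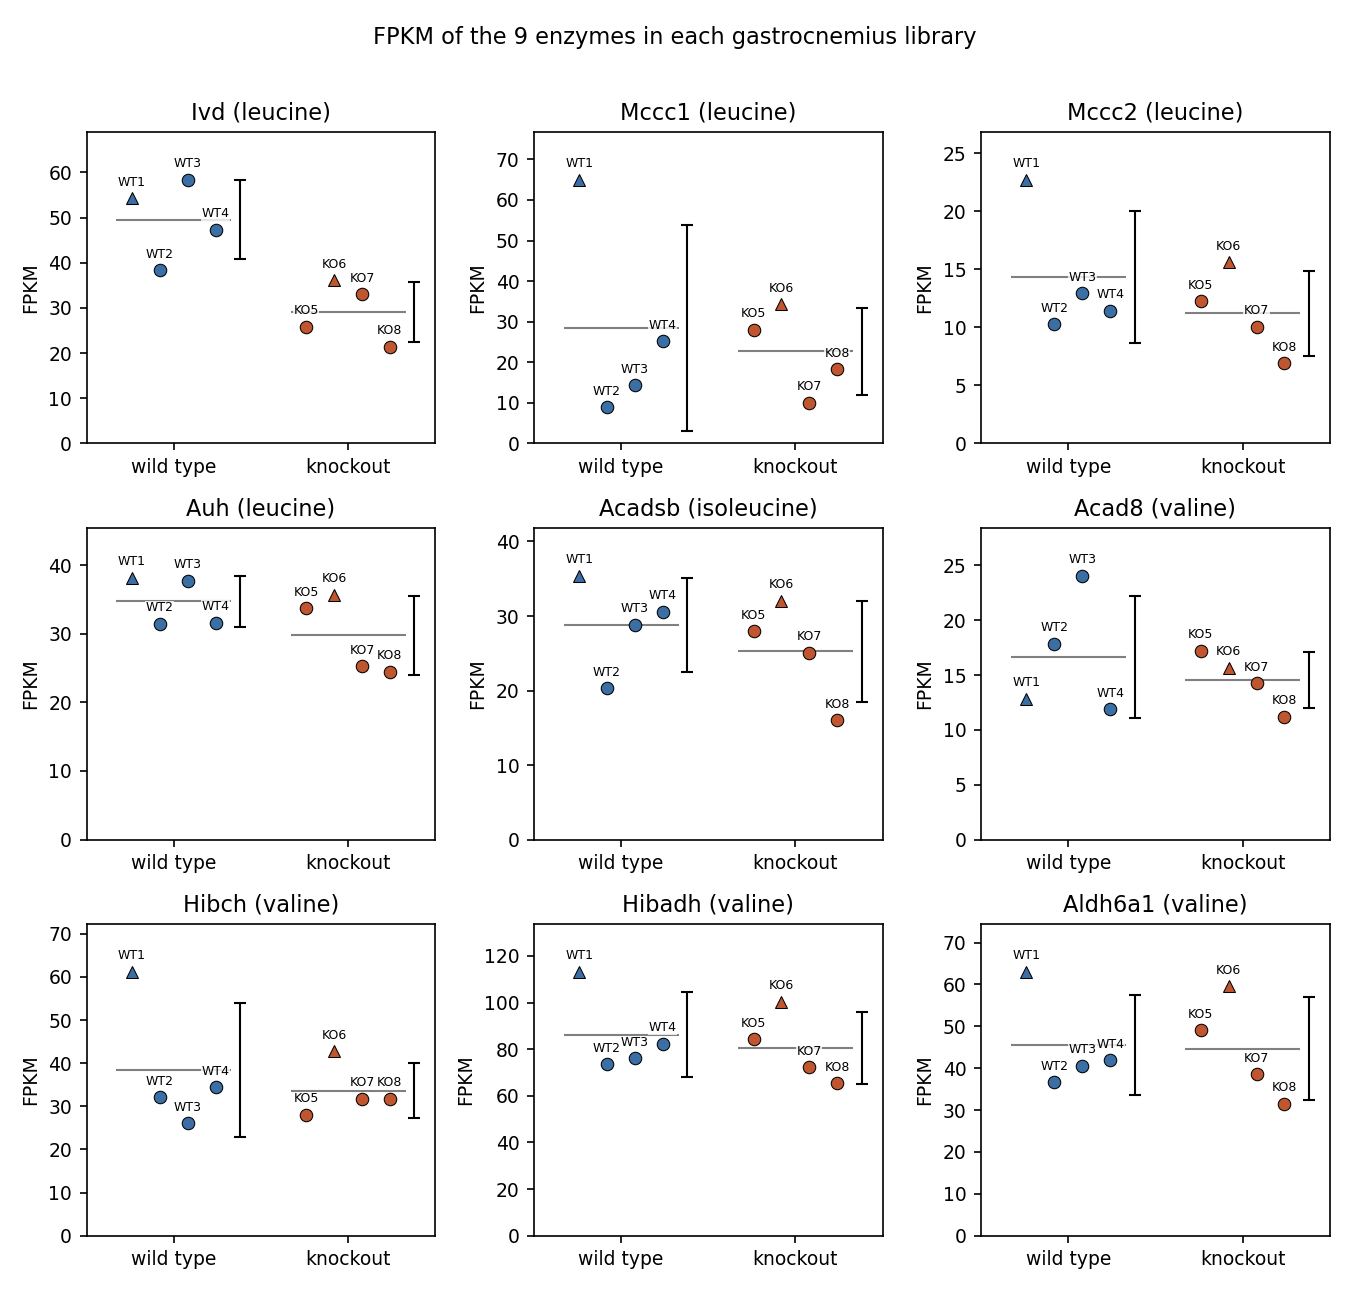
FPKM (vertical axes, each from 0) of the 9 enzymes in the 4 wild-type (blue) and 4 knockout (orange) libraries, with the mean as a grey line and the SD as a bar beside the points; triangles are WT1 and KO6, the libraries with raised adipocyte transcripts. Only for Ivd do all knockout points (21.5 to 36.1 FPKM) lie under all wild-type points (38.3 to 58.4 FPKM).

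Methylcrotonyl-CoA carboxylase, the biotin enzyme that follows, is built from a biotin-carrying subunit (Mccc1) and a carboxyltransferase subunit (Mccc2). Mccc1 read 65.0, 8.87, 14.4 and 25.2 FPKM in WT1 to WT4 and 28.0, 34.3, 10.0 and 18.3 FPKM in KO5 to KO8. The wild-type libraries spanned 7.33-fold and enclosed all 4 knockouts through WT1 alone: without it they spanned 2.85-fold, and KO5 and KO6 lay above them. Mccc1 had the widest spread of the 9 enzymes in both genotypes, also without WT1 and KO6. Its coefficient of variation was 89.4% in wild type, or 51.6% without WT1, and 47.1% in knockouts, or 47.9% without KO6. The difference of -0.07 had a 95% interval of -1.41 to 1.28 on the log2 scale (limma adjusted p = 0.97), which leaves room for large differences either way. Its sign turned without WT1 and KO6, to 0.21.

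Mccc2 varied less. It read 22.7, 10.3, 13.0 and 11.4 FPKM in WT1 to WT4, and 12.3, 15.6, 10.1 and 6.90 FPKM in KO5 to KO8, and the genotypes overlapped. The highest values were those of WT1 and KO6 and the lowest that of KO8. Its difference was -0.32 (SE 0.29, limma adjusted p = 0.62), and it ran from -0.48 without KO6 to -0.13 without KO8 and -0.09 without WT1. Without WT1 and KO6 the means were 11.6 ± 1.35 and 9.74 ± 2.69 FPKM (SD, n = 3 each).

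The balance of the carboxylase subunits varied between libraries, and the genotypes overlapped. Over the 8 libraries Mccc1 and Mccc2 had a Pearson r of 0.73 on the log2(FPKM + 1) scale, given as a description only. The ratio of Mccc1 to Mccc2 FPKM was 0.864, 0.995 and 1.11 in WT2, KO7 and WT3, and 2.2 to 2.86 in KO6, WT4, KO5, KO8 and WT1. Wild-type libraries averaged 1.76 ± 0.938 and knockout libraries 2.03 ± 0.722 (SD, n = 4 per genotype). Among the 6 libraries other than WT1 and KO6, Mccc1 was lowest in WT2, which had the lowest summed FPKM of 7 slow fibre markers (311). It was highest in WT4 and KO5, which had the highest sums (1276 and 1663). Between these the order did not hold, as KO8 (728) had more Mccc1 than WT3 (925). WT1 and KO6, with the most Mccc1 of all libraries (65.0 and 34.3 FPKM), had slow fibre sums of only 492 and 506 FPKM. WT4 and KO5 were also the libraries of least depth, at 0.435 and 0.547 of WT2. These values were set side by side after they were seen, and their part in the spread of Mccc1 was not tested. By annotation, 613 of the 10952 exonic bases of Mccc1 are shared with 3 genes on the opposite strand, and the sources used here give no strand setting for the counting, so reads of such pairs cannot be told apart.

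Auh encodes the methylglutaconyl-CoA hydratase of the leucine line, a protein that also binds AU-rich RNA. It read 38.2, 31.4, 37.7 and 31.6 FPKM in WT1 to WT4, and 33.7, 35.7, 25.3 and 24.5 FPKM in KO5 to KO8. KO7 and KO8 lay under the wild-type range and KO5 and KO6 within it. Its coefficient of variation in wild type was 10.7% with and without WT1, the lowest of the 9 with WT1, while Hibadh (5.77%) and Aldh6a1 (6.88%) were lower without it. Its difference of -0.23 (SE 0.17, limma adjusted p = 0.58) did not pass, and the exact permutation p was 0.229.

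The isoleucine branch is represented by Acadsb, the short/branched-chain acyl-CoA dehydrogenase that acts on methylbutyryl-CoA. It read 35.4, 20.3, 28.8 and 30.6 FPKM in WT1 to WT4, and 27.9, 32.0, 25.1 and 16.0 FPKM in KO5 to KO8. Only KO8 lay under the lowest wild-type library, WT2. The means of 28.8 ± 6.29 and 25.3 ± 6.79 FPKM (SD, n = 4 each) gave a difference of -0.20 with a 95% interval of -0.75 to 0.36 (limma adjusted p = 0.71). It was -0.003 without KO8, -0.09 without WT1, -0.32 without KO6 and -0.35 without WT2.

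In the valine branch none of the 4 enzymes differed beyond the spread between mice. Acad8, the isobutyryl-CoA dehydrogenase, read 12.8, 17.9, 24.1 and 11.9 FPKM in WT1 to WT4, and 17.2, 15.7, 14.3 and 11.2 FPKM in KO5 to KO8, with 3 of 4 knockouts inside the wild-type range. It was the single valine enzyme not at its wild-type peak in WT1, where it read 0.715 of the mean of the other wild-type libraries. Its 95% interval of -0.68 to 0.39 on the log2 scale spans lower and higher knockout levels (limma adjusted p = 0.78).

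Hibch encodes the hydrolase that frees hydroxyisobutyrate from coenzyme A, the step that sets the valine line apart. It read 61.2, 32.1, 26.0 and 34.5 FPKM in WT1 to WT4, and 28.1, 42.8, 31.7 and 31.8 FPKM in KO5 to KO8. The WT1 value was 1.98 times the mean of the other wild-type libraries, and without WT1 and KO6 the means were 30.9 ± 4.34 and 30.5 ± 2.13 FPKM (SD, n = 3 each). The knockout mean moved from 87.3% of wild type over all libraries to 98.9% without those 2.

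Hibadh, the hydroxyisobutyrate dehydrogenase, was the most abundant of the 9 transcripts. It read 113, 73.6, 76.0 and 82.3 FPKM in WT1 to WT4, and 84.3, 100.3, 72.2 and 65.3 FPKM in KO5 to KO8, again highest in WT1 and KO6. The difference of -0.10 had a 95% interval of -0.53 to 0.34 (limma adjusted p = 0.83). Its exons share 122 bases with Gm24355, a gene on the same strand that is listed at 0 in all 8 libraries.

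Aldh6a1, the methylmalonate semialdehyde dehydrogenase that closes the valine line by making propionyl-CoA, had nearly equal means. It read 63.0, 36.6, 40.6 and 41.9 FPKM in WT1 to WT4, and 49.1, 59.6, 38.5 and 31.5 FPKM in KO5 to KO8. The means were 45.5 ± 11.9 and 44.7 ± 12.3 FPKM (SD, n = 4 each), or 39.7 ± 2.73 and 39.7 ± 8.84 FPKM without WT1 and KO6 (n = 3 each). The interval of its difference, -0.58 to 0.51 on the log2 scale (limma adjusted p = 0.96), does not show that the levels were alike. Of its 5784 exonic bases, 1078 overlap Bbof1 on the opposite strand, and reads of that pair cannot be told apart either.

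Because FPKM are levels per length, the enzymes can be ranked. In wild type the order of mean FPKM was Hibadh, Ivd, Aldh6a1, Hibch, Auh, Acadsb, Mccc1, Acad8 and Mccc2. Hibadh lay above Ivd in 4 of 4 wild-type libraries with no overlap of their ranges, and every other pair of neighbours overlapped in range. In knockouts Hibadh was again first and Mccc2 last, while Ivd came after Aldh6a1, Hibch and Auh. Auh lay above Ivd in 2 of 4 knockouts, so those neighbours did not differ beyond their spread.

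Ivd, Acadsb and Acad8 are paralogs, each the dehydrogenase of 1 branch, and they can be set against each other within a library. Ivd made up 53.0%, 50.1%, 52.5% and 52.7% of their summed FPKM in WT1 to WT4 and 36.4%, 43.1%, 45.7% and 44.1% in KO5 to KO8. The wild-type shares were close together (52.0% ± 1.33) and all above the knockout shares (42.3% ± 4.10, SD, n = 4 each). This share does not change when the FPKM of a library are multiplied by a single factor. Quantile normalization can change it, and the share was not computed under that setting. This and the other ratios were formed after the values were seen, and the genotypes were not tested against each other on them. Within the leucine branch the Ivd to Auh ratio ran from 1.22 to 1.55 (wild type) and from 0.765 to 1.31 (knockout), with KO7 above WT2.

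**Figure D2:**
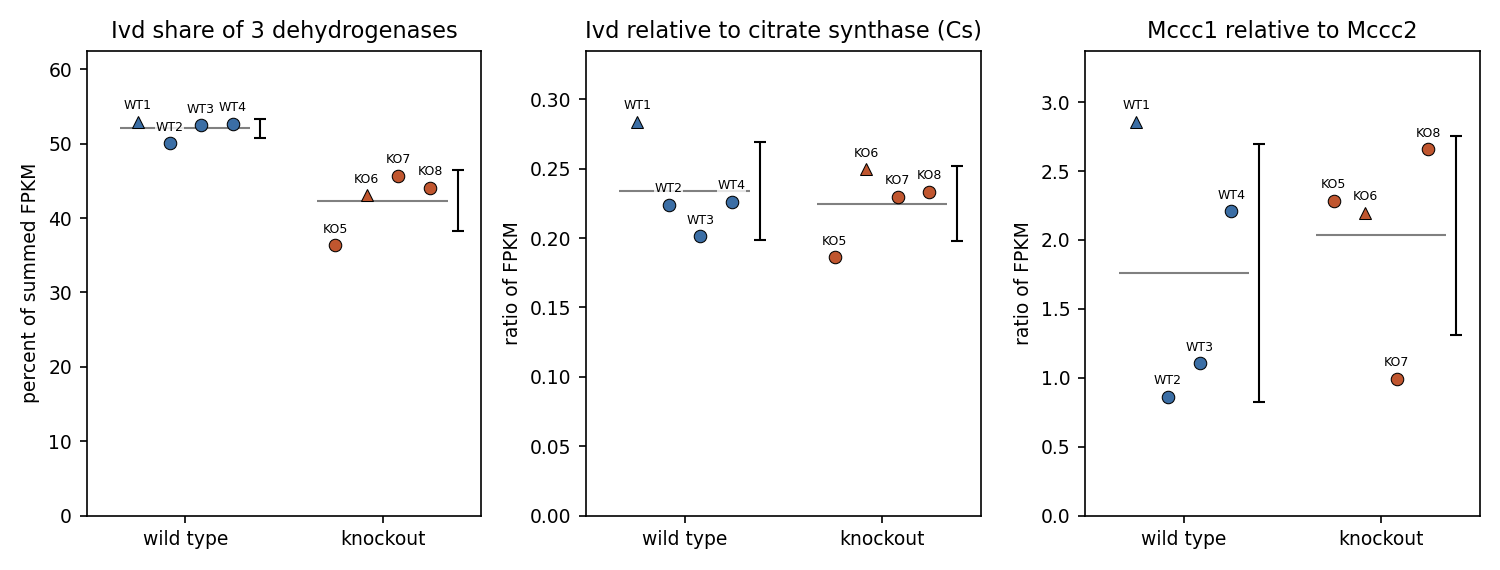
Ratios within each library: Ivd as a percent of the summed FPKM of Ivd, Acadsb and Acad8 (left), Ivd FPKM over Cs FPKM (middle) and Mccc1 FPKM over Mccc2 FPKM (right), with the mean as a grey line, the SD as a bar and triangles for WT1 and KO6. The dehydrogenase shares do not overlap between genotypes (50.1% to 53.0% against 36.4% to 45.7%), the Ivd to Cs ratios do, and the subunit ratios split into 3 libraries near 1 and 5 above 2.

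Taken as a list, all 9 enzymes had a negative difference, with a median of -0.14 on the log2 scale. Of all tested genes 63.6% had a negative difference and their median was -0.12, so the median of these enzymes lay near that of the whole table. By branch the median was -0.27 over the 4 leucine enzymes, -0.20 for the single isoleucine enzyme and -0.11 over the 4 valine enzymes. These values moved when single libraries were left out, as did the median of all tested genes. Without WT1, 5 of 9 enzymes were negative and the valine median turned to 0.075, and without WT2 the leucine median was -0.46. The median of the 9 was -0.09 without WT1, -0.27 without WT2, -0.22 without KO5, -0.30 without KO6 and -0.03 without KO8. For all tested genes the median was -0.07, -0.17, -0.14, -0.20 and -0.02 with the same libraries left out. Without KO8 the branch medians were -0.13 (leucine), -0.003 (isoleucine) and -0.02 (valine). Median-ratio scaling, which brought the median of all genes to 0.003, left 4 of 9 enzymes with a negative difference and their median at 0.001. Ivd then stood at -0.61 (limma adjusted p = 0.42) with Mccc2, Auh and Acadsb the other 3 on the negative side.

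Within each genotype the enzymes tended to be high or low in the same mice. WT1 held the highest wild-type value of 7 of the 9 enzymes, and KO6 the highest knockout value of 8 of the 9. WT2 held the lowest wild-type value of 7, and KO8 the lowest knockout value of 7. The median deviation of the 9 enzymes from their means over all libraries was 0.51 in WT1 and 0.28 in KO6, against -0.41 in KO8, on the log2 scale. For all tested genes the corresponding medians were 0.11, 0.14 and -0.35. The place of adipocyte transcripts in the WT1 and KO6 values was not tested.

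**Figure D3:**
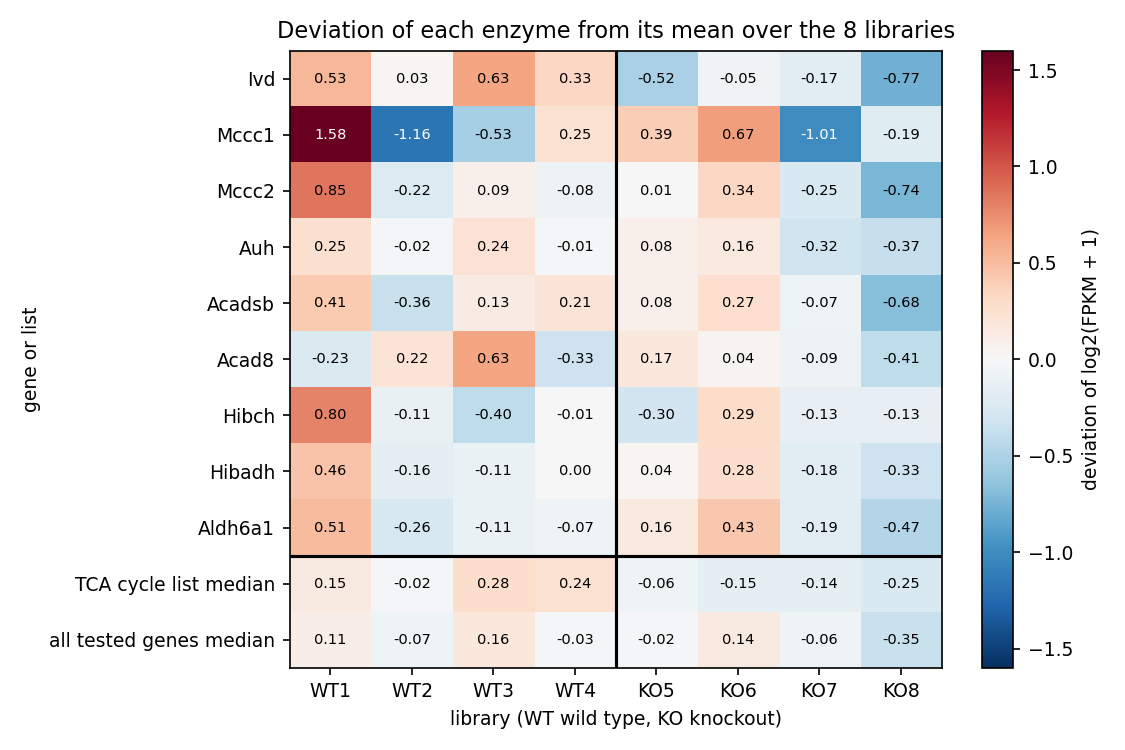
Deviation of log2(FPKM + 1) of each enzyme (rows) from its mean over the 8 libraries (columns), with the median deviation of the 18 TCA cycle genes and of all tested genes in the lower rows; red is above and blue below the mean. Most enzymes are above their mean in WT1 and KO6 and below it in KO8, while Ivd alone is above it in all 4 wild-type libraries and below it in all 4 knockouts.

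Over the 8 libraries, the mean standardised profile of the 9 enzymes was most like those of Fxyd5, G3bp2, Dynlrb1, Hsd17b4 and Tysnd1, with Pearson r from 0.978 to 0.983. The libraries share their depth and composition across genes, so these r are descriptions only. Mccc2 was the member closest to that profile (r = 0.988) and Acad8 the farthest from it (r = 0.193).

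The TCA cycle offers a comparison with other mitochondrial enzymes. Of 18 genes tested, 17 had a negative difference (63.6% of all tested genes). At an unadjusted limma p under 0.05, 8 were lower in knockouts (7.33% of all tested genes), with 0 past the threshold after adjustment. The list median was -0.26. Knockout values lay under all wild-type values for 8 of the 18 (4.68% of all tested genes). Citrate synthase (Cs), the entry step of the cycle, had means of 215 ± 52.3 FPKM (wild type) and 129.8 ± 25.4 FPKM (knockout), with n = 4 and the SD here and in the pairs of means that follow, wild type first. The succinate dehydrogenase subunits Sdha and Sdhc had 237 ± 42.9 and 158 ± 19.99 FPKM, and 542 ± 64.7 and 413 ± 30.6 FPKM. Of these 3, 0 overlapped between genotypes, and each had a limma adjusted p = 0.48. Ivd over Cs was 0.284, 0.224, 0.201 and 0.226 in WT1 to WT4 and 0.186, 0.250, 0.230 and 0.233 in KO5 to KO8, so relative to Cs the genotypes overlapped. When every library was scaled to the median of the TCA cycle list, the Ivd difference was -0.44 and its knockout and wild-type values overlapped (limma adjusted p = 0.24). Under that scaling Ivd and Mccc2 (-0.003) were negative and the other 7 enzymes positive, at most 0.28 for Aldh6a1.

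**Figure D4:**
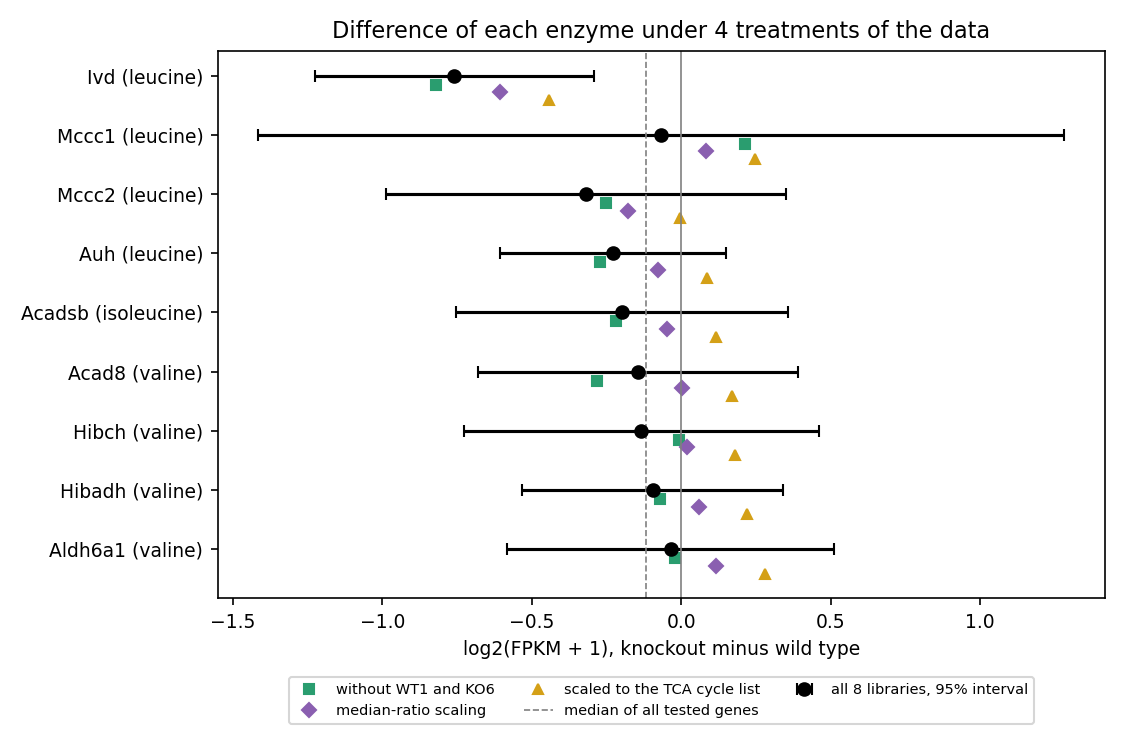
Knockout minus wild-type difference of log2(FPKM + 1) for each enzyme over all 8 libraries with its 95% interval (black), and the same difference without WT1 and KO6 (green squares), after median-ratio scaling (purple diamonds) and after scaling to the TCA cycle list (yellow triangles); the dashed line is the median of all tested genes, -0.12. Only the interval of Ivd (-1.22 to -0.29) excludes 0, and its estimate is negative under each of the 4 treatments.

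The steps around these enzymes were read from lists of the same pathway and of the protein families. Of the first steps, 7 of 8 genes were tested and Bcat2 alone passed, while 3 were lower in knockouts without overlap (4.68% of all tested genes). Besides Bcat2 these were Bckdha, a subunit of the keto acid dehydrogenase, and its kinase Bckdk. Bckdha had means of 79.97 ± 8.13 and 60.9 ± 2.49 FPKM and Bckdk 118 ± 22.3 and 79.7 ± 7.35 FPKM (limma adjusted p = 0.48 for both). The steps shared with fatty acid oxidation and ketone metabolism had 5 of 5 tested genes negative (63.6% of all tested genes). None of them (0 of 5) had an unadjusted limma p under 0.05. The smallest p there was that of Acat1, the acetoacetyl-CoA thiolase, at 65.2 ± 5.54 and 54.6 ± 4.58 FPKM (limma adjusted p = 0.49).

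Downstream, 5 of 6 genes of the propionyl-CoA steps were negative. Mmab, which prepares the cobalamin cofactor of methylmalonyl-CoA mutase, read 8.89 ± 1.63 and 5.60 ± 1.19 FPKM without overlap (limma adjusted p = 0.48). Of 5 genes for electron transfer and biotin supply, 4 were negative. Etfdh, which passes electrons from electron transfer flavoprotein to ubiquinone, read 58.2 ± 8.18 and 41.2 ± 2.57 FPKM, also without overlap and also not past the threshold (limma adjusted p = 0.48). Over all tested genes 63.6% were negative and 4.68% were lower in knockouts without overlap.

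Ivd, Acadsb and Acad8 have relatives that act mainly on straight-chain acyl-CoAs. Of 9 listed acyl-CoA dehydrogenase paralogs 8 were tested, and all 8 had a negative difference (63.6% of all tested genes). At an unadjusted limma p under 0.05, 4 were lower in knockouts (7.33% of all tested genes), and 0 passed the threshold. The list median was -0.35, against -0.12 for all tested genes. Acad9, also an assembly factor of complex I, had means of 28.7 ± 3.5 and 18.7 ± 4.72 FPKM. Acads, Acadl and Acadvl, which act on short, long and very long straight chains, had wild-type means of 37.9 ± 7.24, 112.8 ± 28.0 and 147 ± 20.2 FPKM. Their knockout means were 26.9 ± 3.70, 75.7 ± 9.03 and 117 ± 3.18 FPKM, and Acadl alone of the 4 overlapped between genotypes (limma adjusted p = 0.48 for each). Of all tested genes 4.68% were lower in knockouts without overlap. Ivd over Acads was 1.13 to 1.56 in wild type and 0.711 to 1.59 in knockouts, so relative to Acads the genotypes overlapped.

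Relatives of the carboxylase and the hydratase were read in the same way. Among 5 biotin carboxylase paralogs 4 were negative and 0 had an unadjusted limma p under 0.05, with Pcca of propionyl-CoA carboxylase at 13.2 ± 4.22 and 9.68 ± 2.75 FPKM (limma adjusted p = 0.53). Of the crotonase family that includes Auh and Hibch, 9 of 10 listed genes were tested and 6 were negative (63.6% of all tested genes). At an unadjusted limma p under 0.05, 1 was lower in knockouts (7.33% of all tested genes). That gene was Hadha, of the mitochondrial trifunctional protein, at 97.6 ± 20.6 and 62.2 ± 10.8 FPKM (limma adjusted p = 0.48). Pyruvate carboxylase (Pcx), chosen after its values were seen, read 85.5 FPKM in WT1 and 52.6 FPKM in KO6, and 14.4 to 24.1 FPKM among the remaining libraries.

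The authors' deposited table carries its own flags for p < 0.05 and p < 0.001, from a test that the sources used here do not name. In the authors' deposited table Ivd has both flags and Mccc1 has the first, and the other 7 enzymes have neither. The first flag is set for 20.2% of the 11118 genes tested here. Of those 2250 flagged genes, 82.7% had wild-type and knockout ranges that overlapped, as they did for Mccc1.

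In the genome the 9 genes lie on 8 chromosomes (mm10, positions from 1). Ivd (ENSMUSG00000027332) spans chr2:118861954-118882909 with 15 merged exons, none shared with another gene in GENCODE M21. Mccc1 (ENSMUSG00000027709) spans chr3:35959312-36000678, Mccc2 (ENSMUSG00000021646) chr13:99948533-100015639 and Auh (ENSMUSG00000021460) chr13:52835119-52929681. Acadsb (ENSMUSG00000030861) spans chr7:131410601-131446211 and Acad8 (ENSMUSG00000031969) chr9:26974135-26999566. Hibch (ENSMUSG00000041426) spans chr1:52845013-52920986, Hibadh (ENSMUSG00000029776) chr6:52546228-52640389 and Aldh6a1 (ENSMUSG00000021238) chr12:84430723-84450950.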

How the data were processed

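Per the labels' protocols, total RNA of frozen gastrocnemius went into single-end mRNA libraries, aligned with TopHat 2.0.9 (mm10). The FPKM deposited by the authors came from uniquely mapped reads through Cufflinks, version 2.0.2 per the labels' protocols and 2.2.1 per the submitters' processing notes. The sources used here name neither the annotation nor the strand setting.

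Genes with a mean of at least 1 FPKM (11118, the highest row per symbol) were fitted with limma-trend 3.58.1 (R 4.3.3) on log2(FPKM + 1), a scale that understates changes of low genes, with genotype as the only term and 2-sided Benjamini-Hochberg adjusted p. Mean FPKM also had an exact permutation test. FPKM allow no counting interval. Libraries are labelled as biological replicates, 1 mouse each. Relative depth is the mode of the ratio to WT2 over values under 0.3 FPKM. The fits were first run on simulated data, where the required check was the mean estimate of added differences. That check does not show how often a difference like that of Ivd would pass the threshold.

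The enzymes, lists and tests were chosen with earlier results of these data known. Named are all 9 enzymes and, per list, up to 4 genes of smallest unadjusted p under 0.05, or else the smallest; 1 gene that this rule names is not reported here. The alternatives tried were a pseudocount of 0.1 or 0.5, a minimum of 5 FPKM or none, other scalings and limma settings, summed rows, 0 as missing, and libraries left out.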

Additional observations from a re-analysis of the deposited data

Results flagged for a closer look

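One value stood apart from its group. The share of Ivd in the summed FPKM of Ivd, Acadsb and Acad8 was 50.1% in WT2, under the 52.5% to 53.0% of the other wild-type libraries, with a gap that was 0.831 of the range, just over Dixon's 95% limit for 4 samples. In all, 36 groups of 4 libraries were looked at (9 enzymes and 9 ratios in each genotype) and this was the single one past the limit, where chance gives about 1 in 20. WT2 still lay above every knockout library, of which the highest was KO7 at 45.7%. Mccc1 in WT1, at 65.0 FPKM against 8.87 to 25.2 FPKM, did not reach the limit.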

How the results depend on the processing

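In 20 alternatives 0 of the 9 enzymes passed the limma threshold, and Ivd kept a negative difference in all 20, from -0.87 to -0.44. Mccc2 was also negative in all 20 but ran from -0.48 to -0.003. For Ivd the unadjusted limma p ran from 0.0012 to 0.0366 (adjusted p from 0.243 to 1). Its genotypes did not overlap in 19 of 20, but only scaling the libraries to each other could change that. Leaving libraries out or changing the other settings could not make the separate Ivd groups overlap. Under median-ratio scaling Ivd stayed without overlap, where 2.82% of all tested genes were lower in knockouts without overlap. Scaling to the TCA cycle list left 0 enzymes without overlap (0.333% of all tested genes). It moved the median of the 9 to 0.17 and that of all tested genes to 0.20. Quantile normalization gave 2 enzymes lower in knockouts without overlap, Ivd and Auh, where 3.14% of all tested genes were. Among the other enzymes signs turned. With the TCA cycle scaling the differences were 0.25 (Mccc1), 0.087 (Auh), 0.12 (Acadsb), 0.17 (Acad8), 0.18 (Hibch), 0.22 (Hibadh) and 0.28 (Aldh6a1). With median-ratio scaling they were 0.082 (Mccc1), 0.0013 (Acad8), 0.018 (Hibch), 0.059 (Hibadh) and 0.12 (Aldh6a1), and with array weights 0.069 (Acad8) and 0.062 (Aldh6a1). Without both WT1 and KO6 Mccc1 turned to 0.21. With single libraries left out, Acadsb ran from -0.35 to -0.003, Auh from -0.32 to -0.14, Mccc1 from -0.47 to 0.45, Acad8 from -0.28 to 0.041, Hibch from -0.29 to 0.11, Hibadh from -0.21 to 0.041 and Aldh6a1 from -0.18 to 0.13, with the highest value without WT1 in Mccc1, Hibch, Hibadh and Aldh6a1, without WT3 in Acad8 and without KO8 in Acadsb and Auh. The TCA cycle scaling moved all genes by the same amount on the log2 scale. Median-ratio scaling moved the median of all tested genes from -0.12 to 0.003. The cause of the turns with array weights or with libraries left out was not tested. The count of genes called over the whole table was 3 over all libraries, 4 to 9 with single libraries left out (9 without WT1, 8 without WT2 or KO7, 6 without KO6, 5 without KO8), 11 without both WT1 and KO6, and 1 with FPKM of 0 as missing, which leaves out genes listed at 0 throughout a genotype. No paired analysis was possible because the knockout columns carry numbers that match none of the labelled knockouts. FPKM keep no read totals, so what depth limits is known only through the spread between mice.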
